A study of Mus musculus with 7 samples.

Results

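The cytoplasmic ribosomal protein genes, which encode the protein part of the cell's main ribosomes, were examined in kidneys of cisplatin-treated mice. They were taken from the deposited count table as protein-coding rows named Rpl or Rps with a number, Rplp0 to Rplp2 or Rpsa, without the Rps6k kinases, with at least 10 counts in at least 3 libraries. Of 54532 genes in the table, 94 met the name and biotype, and 88 of these met the count minimum. The measurement was bulk RNA-seq of whole kidneys from C57BL/6J mice, 6 to 8 weeks old and, per the design text, male. Cisplatin (CP), a platinum chemotherapy toxic to tubule cells, had been injected into every animal by tail vein at a dose of 20 mg/kg. In the Cis_DXZ group (3 libraries) DXZ was given at 40 mg/kg by tail vein, 30 min before cisplatin and then once per 24 h over 3 days. In the Cis_Saline group (4 libraries) saline took its place per the labels. DXZ is not spelled out in the labels. Kidneys free of cisplatin were not used here, so every value is a comparison among kidneys of cisplatin-treated mice. Nothing in the labels ties each library to its own animal, and the p-values therefore rest on the spread between samples, which may be technical.

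Ribosomes translate mRNA into protein. Each has a small (40S) subunit, which reads the mRNA, and a large (60S) subunit, which joins the amino acids, and each is built in the nucleolus from ribosomal RNA and one copy of most of the ribosomal proteins. In mammals the mRNAs of these proteins start with a C followed by a run of pyrimidines, the TOP (terminal oligopyrimidine) motif, through which the mTORC1 kinase pathway controls their translation. Kidney tubule cells use large amounts of newly made protein for transport and, after injury, for repair.

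Start-site windows from RefSeq on GRCm38.p6 were available for 64 of the 88 genes. They are shown because the pyrimidine run at the start is the sequence feature for which these genes are known. Each window runs 15 bases to either side of the annotated start, whose first transcribed base opens the later part of the window, and capitals mark the longest unbroken run of C and T that reaches within 10 bases of the start. Rpl35, Rpl27a, Rplp2, Rpl38, Rps18, Rps6 and Rpl14 have long runs across the start, Rps19 and Rps23 have shorter runs to one side of it, and Rps27 and its copy Rps27rt carry the same coding sequence behind different starts.
Rpl35, chr2:39005117-39005146, minus strand: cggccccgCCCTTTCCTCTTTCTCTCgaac
Rpl27a, chr7:109519180-109519209, plus strand: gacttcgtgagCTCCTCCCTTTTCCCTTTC
Rplp2, chr7:141447636-141447665, plus strand: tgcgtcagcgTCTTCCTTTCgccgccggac
Rpl38, chr11:114668565-114668594, plus strand: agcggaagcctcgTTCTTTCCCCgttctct
Rps18, chr17:33955651-33955680, minus strand: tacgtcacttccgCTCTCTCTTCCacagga
Rps6, chr4:86857353-86857382, minus strand: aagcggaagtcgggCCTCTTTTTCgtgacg
Rpl14, chr9:120571502-120571531, plus strand: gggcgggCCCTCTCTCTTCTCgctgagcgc
Rps19, chr7:24884577-24884606, plus strand: tccgaaaTCTCgcgagactcgacgcccgac
Rps23, chr13:90923107-90923136, plus strand: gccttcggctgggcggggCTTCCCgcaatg
Rps27, chr3:90213634-90213663, minus strand: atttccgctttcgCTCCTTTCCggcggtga
Rps27rt, chr9:114982725-114982754, minus strand: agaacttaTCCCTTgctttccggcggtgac

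A run of at least 8 pyrimidines reached within 10 bases of the start in 27 of the 64 genes (42.2%), against 13.5% of the 27025 genes in the promoter table. In the whole window of 300 bases, read on both strands, CGGAAG, the core letters bound by ETS and GABP factors, was present in 67.2% of the 64 and in 17.2% of all promoters. GATGGC, which includes the core read by YY1, was present in 20.3% and 14.1%. These matches describe letters only. The 27 genes with a run of at least 8 pyrimidines had a median log2 fold change, DXZ over saline, of 0.48, and 9 were past the test. The 37 with a shorter run had a median of 0.42 with 11 past it, a difference that was not tested.

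Libraries held 16058157 to 18133736 counts, with 20803 to 21827 genes detected and 5.18% to 8.35% of counts from the mitochondrial genome. As a check of the kidney label, all 20 proximal tubule markers were expressed well enough to be tested, with a summed level of 10000 to 14279 CPM (counts scaled to library size) in DXZ kidneys and 16527 to 41058 CPM in saline kidneys. Of these markers 9 were past the test, all lower in DXZ kidneys, where 2.31% of all tested genes fell. All 20 had a negative log2 fold change. At an unadjusted p below 0.05, 18 of the 20 were lower, where 1743 of 15351 tested genes were. All 16 tubule injury markers were tested and 5 rose, where 3.24% of all tested genes rose. Their summed levels were 23492 to 37917 CPM in DXZ kidneys and 8685 to 24437 CPM in saline kidneys. The log2 fold change was positive for 15 of the 16. At an unadjusted p below 0.05, 11 of them were higher, against 14% of tested genes. Saline 1 had the highest proximal tubule sum and the lowest injury sum of the 7 libraries, and DXZ 2 had the lowest and the highest. DXZ 1 stood apart from the other DXZ libraries in markers of supporting cells: the 8 fibroblast markers summed to 813 CPM in DXZ 1, 97.4 CPM in DXZ 2 and 57.5 CPM in DXZ 3, against 143 to 553 CPM in saline kidneys.

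Transcripts of the ribosomal protein genes took a larger part of the kidney's mRNA in DXZ kidneys than in saline kidneys. The 88 genes together held 3.76%, 4.25% and 3.63% of all counts in DXZ 1 to 3, against 2.49%, 2.95%, 3.02% and 2.67% in saline 1 to 4. Every DXZ kidney was above every saline kidney. The means were 3.88 ± 0.33% (SD, n = 3) in DXZ kidneys and 2.78 ± 0.25% (SD, n = 4) in saline kidneys, a difference of 1.10 percentage points and a ratio of 1.39. With mitochondrial counts left out the ratio was also 1.39. In bulk tissue, more cells with high ribosomal protein mRNA and more of that mRNA per cell cannot be told apart. The share was highest in DXZ 2 and lowest in saline 1, the libraries at the ends of the proximal tubule and injury sums, and the part of those cell markers in the result was not tested.

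**Figure D1:**
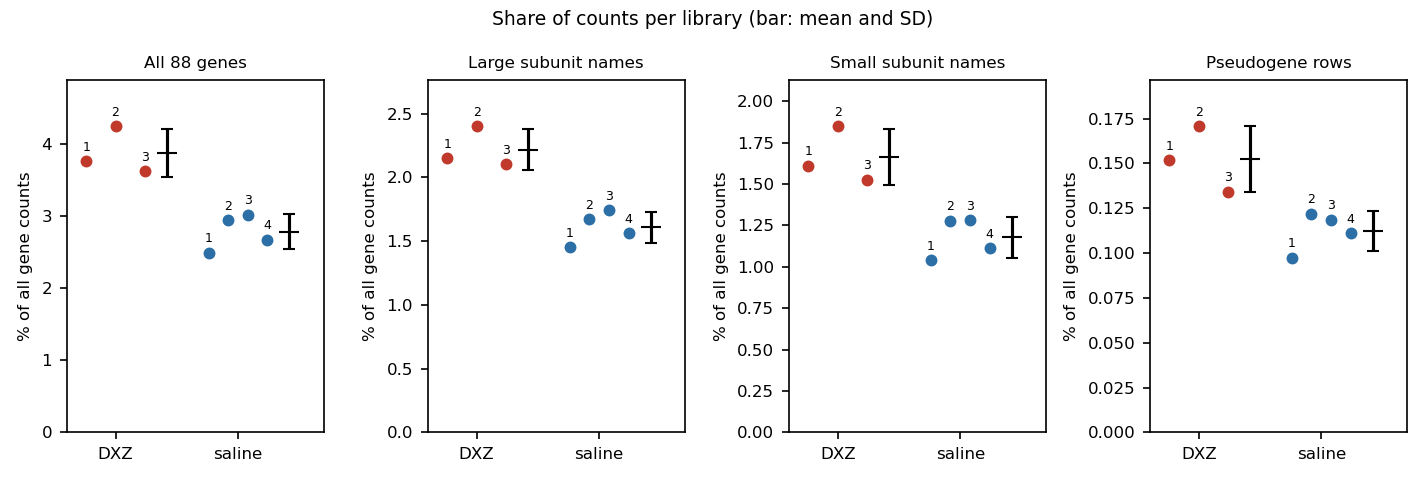
Share of all gene counts (vertical axes, percent) held by the 88 ribosomal protein genes, by their large and small subunit names and by pseudogene rows, in each library, numbered by replicate, with the mean and SD of each group. For all 88 genes the 3 DXZ kidneys sit between 3.63% and 4.25%, above the 4 saline kidneys at 2.49% to 3.02%.

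The shift was spread over nearly the whole set. All 88 genes passed the low-count filter of the test across 15351 genes, edgeR's quasi-likelihood test with Benjamini-Hochberg adjustment, and 29 of them rose in DXZ kidneys at an adjusted p below 0.05, where 3.24% of all tested genes rose. None of the 88 fell by edgeR, DESeq2 or limma-voom, where 2.31% of all tested genes fell by edgeR. At an unadjusted p below 0.05, 64 of the 88 were higher in DXZ kidneys, against 14% of tested genes, and 1, Rpl10-ps3, was lower. The log2 fold change was above 0 for 84 of the 88, against 51.3% of tested genes, and its median was 0.47, against 0.01 over all tested genes. In 62 of the 88 every DXZ library was above every saline library, against 12.8% of tested genes. Abundant genes pass such tests more often, so the same counts were taken at a mean level of at least 100 CPM: 27 of 76 ribosomal protein genes and 6.14% of 1970 tested genes rose, and 59 of the 76 against 19.6% of the 1970 had groups that did not overlap. The changes were small: the genes that rose did so by 1.37-fold to 1.76-fold, apart from Rps27a at 2.95-fold, and the median of the 29 was 1.54-fold.

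The number past the test rested on single libraries, as it did for the whole transcriptome. Without DXZ 2, DXZ 3 or saline 4 none of the 88 genes passed, where 0%, 0.496% and 0.0132% of all tested genes rose. At an unadjusted p below 0.05, 45, 56 and 48 of the 88 were still higher in DXZ kidneys, with 1 lower each time. Over all genes 3191 of 15705, 3248 of 15723 and 3074 of 15205 tested were under that p in either direction. Without DXZ 1 the number past the adjusted threshold was 36 against 5.07% of all genes. It was 10 without saline 1 (1.26% of all genes), 7 without saline 2 (1.26%) and 13 without saline 3 (1.42%). With all libraries DESeq2 called 49 of the 88 higher and 7.61% of tested genes, and limma-voom 31 and 3.44%. The median log2 fold change of the set stayed between 0.37 and 0.54 in all of these.

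**Figure D2:**
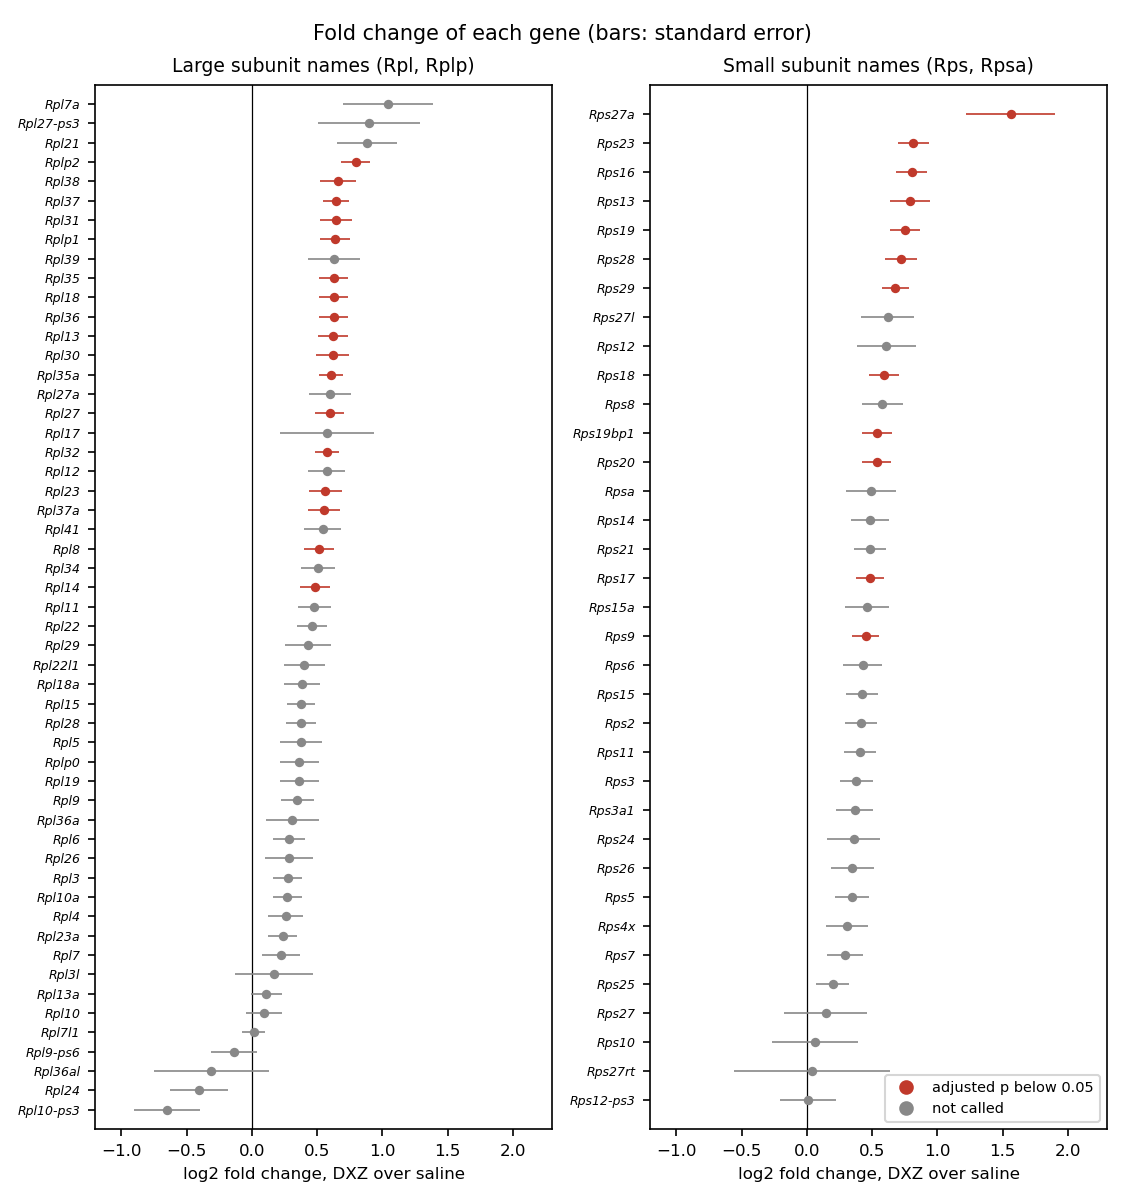
Log2 fold change, DXZ over saline, with its SE for each of the 88 ribosomal protein genes, with large subunit names on the left and small subunit names on the right, each ordered by size. The 29 genes that rose are in red and the others in grey, 84 of the 88 lie above 0, and the median is 0.47.

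Libraries within a group differed in a way most of these genes shared. DXZ 2 was the highest of the DXZ libraries for 57 of the 88 genes, DXZ 3 for 27 and DXZ 1 for 4, and DXZ 1 was the lowest for 63. Relative to the saline mean, the median gene stood at a log2 difference of 0.29 in DXZ 1, 0.64 in DXZ 2 and 0.46 in DXZ 3. In saline 1 to 4 the same medians were −0.11, 0.02, 0.08 and 0.01, with saline 1 the lowest saline library for 60 genes. The genes that passed varied less among DXZ kidneys than the others, a spread that the test itself uses: the 29 had a median coefficient of variation of 8.80% in DXZ kidneys and 7.74% in saline kidneys, and the other 59 had 17.9% in DXZ kidneys and 8.998% in saline kidneys. Of the 57 genes highest in DXZ 2, 12 rose, and of the 27 highest in DXZ 3, 17 rose.

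**Figure D3:**
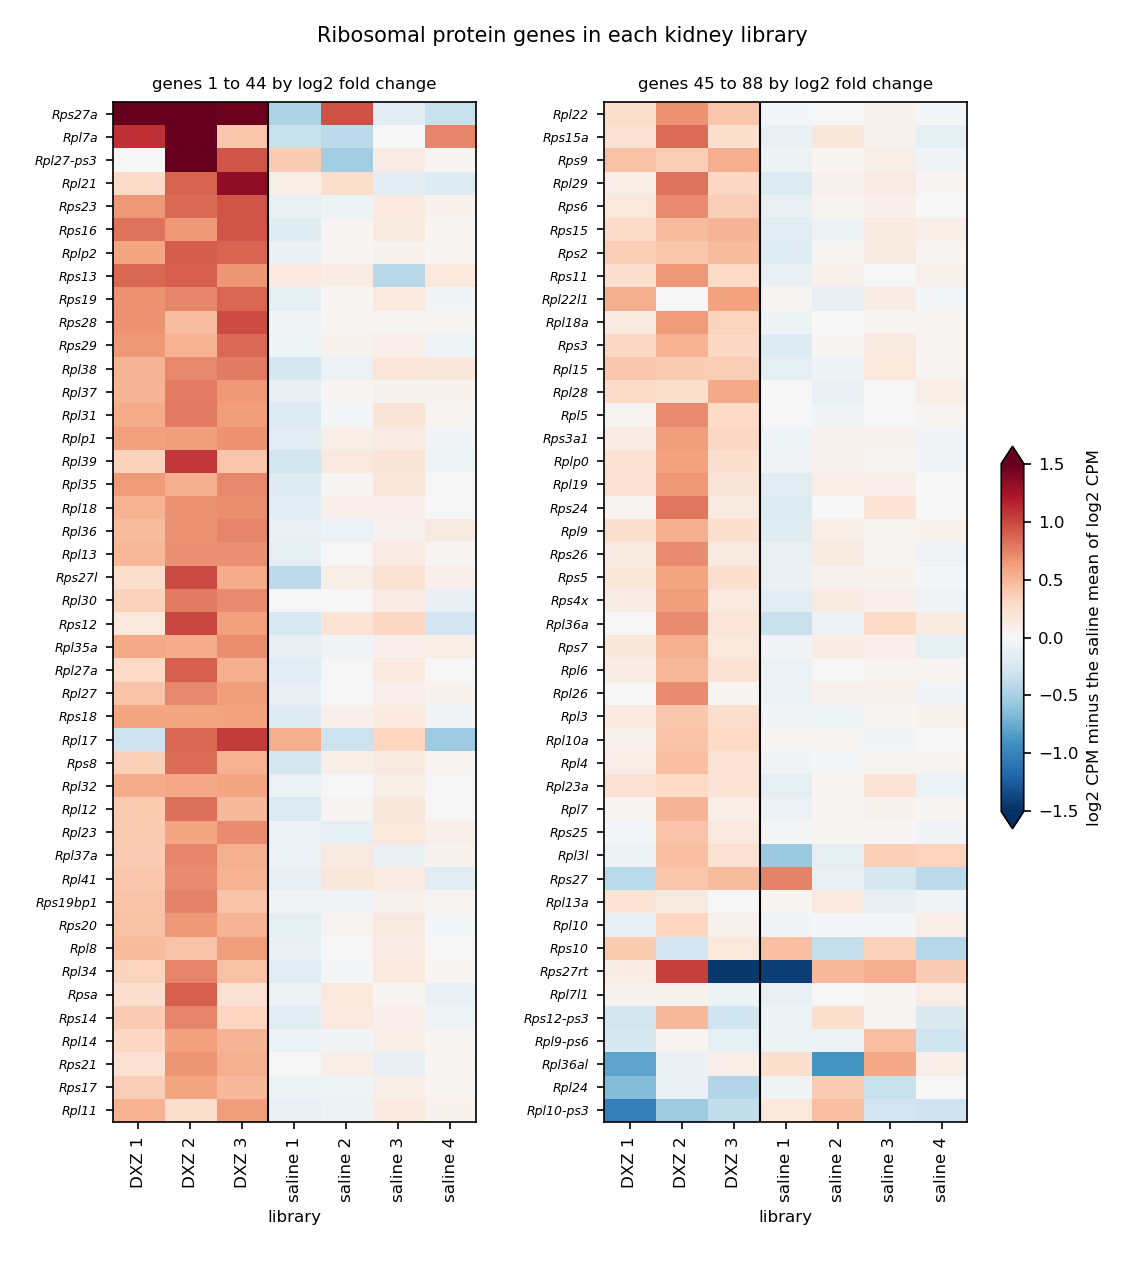
Log2 level of each of the 88 genes in each library relative to the saline mean, with DXZ libraries to the left of saline libraries and the colour scale held at its ends. The DXZ columns lie above 0 for most genes, most of all in DXZ 2, and saline 1 is the lowest saline column for 60 genes.

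Genes with large subunit names numbered 53, of which 17 rose, with a median log2 fold change of 0.48. The P stalk, the arm of the large subunit that calls in the elongation factors, had 2 of its 3 genes rise. Rplp2, one of its acidic outer proteins, was at 313, 391 and 383 CPM in DXZ 1 to 3 and at 194, 211, 217 and 213 CPM in saline 1 to 4. No library of one group reached the other, and Rplp2 had the lowest adjusted p of the set (log2 fold change 0.80 ± 0.11 SE, edgeR adjusted p = 0.0204). Rplp1, the other acidic protein and by FPKM (fragments per kilobase of gene, scaled to library size) the most abundant ribosomal protein mRNA here, was at 861, 864 and 898 CPM in DXZ kidneys and at 501, 594, 608 and 546 CPM in saline kidneys (log2 fold change 0.64 ± 0.12 SE, edgeR adjusted p = 0.0301). Rplp0, the base on which those proteins sit, was at 1499.6, 1969.7 and 1538 CPM in DXZ kidneys and at 1251, 1351, 1328 and 1255 CPM in saline kidneys. Its groups did not overlap, but DXZ 2 lay far above the other DXZ kidneys and the difference missed the threshold (log2 fold change 0.36 ± 0.15 SE, edgeR adjusted p = 0.168).

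Rpl5 and Rpl11, which carry the 5S ribosomal RNA into the large subunit and can bind the p53 inhibitor MDM2 when free, did not pass by edgeR, while DESeq2 called 1 of them and limma-voom none. Rpl11 averaged 508 ± 63.8 CPM (SD, n = 3) in DXZ kidneys and 365 ± 30.4 CPM (SD, n = 4) in saline kidneys (log2 fold change 0.48 ± 0.13 SE, edgeR adjusted p = 0.0648). Rpl5 averaged 767 ± 182 CPM in DXZ kidneys and 590.4 ± 12.6 CPM in saline kidneys (log2 fold change 0.38 ± 0.16 SE, edgeR adjusted p = 0.192). In both genes every DXZ library was above every saline library.

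Around the tunnel through which the new protein leaves, 2 of 7 genes rose, Rpl31 and Rpl35, and the median log2 fold change was 0.58. Rpl35, one of the proteins at the tunnel's mouth, was at 237, 222 and 249.9 CPM in DXZ kidneys and at 133, 154, 173 and 152 CPM in saline kidneys (log2 fold change 0.63 ± 0.11 SE, edgeR adjusted p = 0.0278). Rpl39, a small X-linked protein of the tunnel wall, was at 261, 429 and 274 CPM in DXZ kidneys and at 170.3, 227, 235 and 197 CPM in saline kidneys. The groups did not overlap, DXZ 2 was far above the other DXZ libraries, and the difference missed the threshold (log2 fold change 0.63 ± 0.20 SE, edgeR adjusted p = 0.0967). All 4 X-linked genes of the list (Rpl10, Rpl36a, Rpl39 and Rps4x) were positive, Rpl10 not in every fit; edgeR called none of them, limma-voom none and DESeq2 1, and 1 was at an unadjusted p below 0.05.

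Of 4 genes for proteins close to the peptidyl transferase centre, where amino acids are joined, 1 rose, and the median log2 fold change was 0.27. That gene was Rpl8 (log2 fold change 0.51, edgeR adjusted p = 0.0445). Rpl3, which reaches into the centre, averaged 596 ± 51.3 CPM (SD, n = 3) in DXZ kidneys and 493 ± 20.7 CPM (SD, n = 4) in saline kidneys (log2 fold change 0.27 ± 0.11 SE, edgeR adjusted p = 0.166). Rpl10, a late-joining protein, was at 620 to 841 CPM in DXZ kidneys and 652 to 725 CPM in saline kidneys, with overlapping groups (log2 fold change 0.09 ± 0.14 SE, edgeR adjusted p = 0.712).

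Among the other large subunit genes, Rpl35a, Rpl37, Rpl32, Rpl36, Rpl18, Rpl27 and Rpl13 had log2 fold changes of 0.58 to 0.65 and edgeR adjusted p values of 0.0215 to 0.0313. Rpl32 was the most even: it was at 413, 420.0 and 423 CPM in DXZ kidneys and at 265, 281, 298 and 280 CPM in saline kidneys. The gap between the groups was wider than the spread inside either of them (log2 fold change 0.58 ± 0.09 SE, edgeR adjusted p = 0.0223). The SD was 4.96 CPM (n = 3) in DXZ kidneys and 13.7 CPM (n = 4) in saline kidneys. Rpl38, which in mice is needed for translation of Hox mRNAs in the embryo, averaged 175 ± 17.2 CPM (SD, n = 3) in DXZ kidneys and 110.4 ± 16.2 CPM (SD, n = 4) in saline kidneys and rose as well (log2 fold change 0.66 ± 0.14 SE, edgeR adjusted p = 0.0379).

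Genes with small subunit names numbered 35; all were positive, although Rps10, Rps27, Rps27rt and Rps12-ps3 turned negative in some other fits, 12 rose, and the median log2 fold change was 0.46. The head of the subunit, which swivels as the mRNA moves on, held 8 of the 12 among its 14 genes, with a median of 0.56. Rps16, whose tail touches the tRNA, was at 481, 433 and 528 CPM in DXZ kidneys and at 242, 279.5, 301 and 279 CPM in saline kidneys (log2 fold change 0.80 ± 0.12 SE, edgeR adjusted p = 0.0209). Here DXZ 2 was the lowest DXZ library, and the groups were still far apart. Rps19, the gene most often mutated in Diamond-Blackfan anaemia in humans, was at 557, 582 and 634 CPM in DXZ kidneys and at 319, 356, 387 and 338 CPM in saline kidneys, with no overlap (log2 fold change 0.75 ± 0.11 SE, edgeR adjusted p = 0.0212). Rps29 and Rps28, small proteins of the head, rose by 0.68 ± 0.11 and 0.72 ± 0.12 (SE) on the log2 scale (edgeR adjusted p = 0.0215 and 0.0239).

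Rps27a, made as a fusion of ubiquitin with a head protein, had the largest log2 fold change of the set. It was at 373, 453 and 332 CPM in DXZ kidneys and at 87.2, 234, 107 and 95.5 CPM in saline kidneys. Saline 2 lay well above the other saline libraries, yet below every DXZ library (log2 fold change 1.56 ± 0.34 SE, edgeR adjusted p = 0.0434). Leaving out 1 library at a time gave log2 fold changes of 1.41 to 1.999.

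In the body and platform of the small subunit 3 of 17 genes rose (Rps23, Rps13 and Rps9), and the median log2 fold change was 0.43. Rps23, which lies at the decoding centre, was at 514, 586 and 625 CPM in DXZ kidneys and at 301, 308, 360.1 and 338 CPM in saline kidneys, with no overlap (log2 fold change 0.81 ± 0.12 SE, edgeR adjusted p = 0.0209). Rps6, the protein phosphorylated by S6 kinase downstream of mTORC1, was at 603, 889 and 701 CPM in DXZ kidneys and at 500.4, 558, 572 and 540.5 CPM in saline kidneys. All DXZ libraries were above all saline libraries, and the spread among DXZ libraries was wide (log2 fold change 0.43 ± 0.15 SE, edgeR adjusted p = 0.123). Rps14, the gene lost in human 5q- syndrome, differed by 0.49 ± 0.14 (SE) on the log2 scale (edgeR adjusted p = 0.0860), and Rpsa, also known as the laminin receptor, by 0.49 ± 0.19 (SE; edgeR adjusted p = 0.156).

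Size, level and base composition had next to no rank relation with the response within the set. Across the 88 genes, which share the same libraries and are not independent replicates, Spearman's rho of the log2 fold change was 0.004 with gene length, −0.05 with mean CPM and 0.03 with GC content. Over all 15351 tested genes its rho with gene length was −0.15, with shorter genes tending to be higher in DXZ kidneys. Among genes of at most 1500 bases the 34 ribosomal protein genes had a median of 0.50 and the 1883 other genes 0.17. From 1500 to 3000 bases the medians were 0.42 for 38 ribosomal protein genes and 0.06 for 3475 others, and from 3000 to 6000 bases 0.51 for 14 and 0.00 for 5665. With each library's trend with gene length removed, 14 of the 88 rose, where 2.33% of all genes rose, and the median of the 88 was 0.41. With the trend with GC content removed as well, 17 rose, where 2.38% of all genes rose.

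The order of levels hardly moved. Per length, the median level of the 88 genes was 221 FPKM in DXZ kidneys and 165 FPKM in saline kidneys, with 69 genes at 100 FPKM or more in DXZ kidneys and 60 in saline kidneys. Spearman's rho of the mean FPKM in DXZ kidneys with that in saline kidneys was 0.98 across the 88 genes. The highest were Rplp1 at 1739 FPKM in DXZ kidneys and 1122 FPKM in saline kidneys, Rplp0, Rps3a1, Rps15 and Rpl36, and the lowest were Rpl36al, Rps10 and Rpl3l. Of genes linked to Diamond-Blackfan anaemia in humans, 9 of 18 rose with a median log2 fold change of 0.48. The 30 genes that hold snoRNA genes (58 in all) inside their bounds had a median of 0.57 with 9 risen, and the 58 that hold none had a median of 0.44 with 20 risen, a difference that was not tested.

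Rps19bp1 met the naming rule but encodes a binding partner of the Rps19 protein and of SIRT1, not a ribosomal protein. It was at 25.6, 31.7 and 25.4 CPM in DXZ kidneys and at 18.2, 18.3, 19.8 and 19.5 CPM in saline kidneys and rose (log2 fold change 0.54 ± 0.11 SE, edgeR adjusted p = 0.0406). Without it and the named paralogs, 81 genes remained, of which 28 rose, with a median log2 fold change of 0.48. The genes nearest the count minimum were Rpl36al, with 90 counts over all libraries, inside it, and Rpl36a-ps1, with 52 counts, outside it. Of the other 5 genes outside it, Rpl39l had 1 count in all and Rpl10l, Rpl13a-ps1, Rpl9-ps1 and Rpl36-ps4 had none.

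None of the 10 paralogs and retained copies rose or fell by edgeR, and their median log2 fold change was 0.03. At an unadjusted p below 0.05, 3 of the 10 were higher and 1 lower, and DESeq2 called 1 higher and limma-voom none. Rps27l, a paralog known as a p53 target, was at 348, 577 and 426 CPM in DXZ kidneys and at 220.03, 308, 340 and 305 CPM in saline kidneys, without overlap (log2 fold change 0.62 ± 0.21 SE, edgeR adjusted p = 0.110). Rpl22, whose protein also binds RNA outside the ribosome, and its paralog Rpl22l1 had log2 fold changes of 0.46 ± 0.11 and 0.40 ± 0.16 (SE), and neither passed (edgeR adjusted p = 0.0561 and 0.162). Rpl7l1, paralog of Rpl7, was level at 107 ± 5.40 CPM (SD, n = 3) in DXZ kidneys and 106 ± 6.50 CPM (SD, n = 4) in saline kidneys (log2 fold change 0.01 ± 0.09 SE, edgeR adjusted p = 0.944). Its sign, like that of Rpl10, turned negative in some other fits. Rpl3l, the striated muscle form of Rpl3, was at 2.48 to 3.57 CPM in DXZ kidneys and 1.78 to 3.36 CPM in saline kidneys. No source used here gives the strand setting or says how reads that fit several copies were treated, so levels of rows with near-identical copies are uncertain.

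Rps27 and Rps27rt share a coding sequence of 255 bases without a difference, although their starts printed above lie on chromosomes 3 and 9. Rps27 was at 126, 222 and 231 CPM in DXZ kidneys and at 278, 154, 139.8 and 127 CPM in saline kidneys. Rps27rt was at 162, 306 and 54.7 CPM in DXZ kidneys and at 56.0, 210.1, 219 and 194 CPM in saline kidneys. The split between the rows differed among libraries of 1 group: Rps27rt held 56.3%, 57.9% and 19.1% of their sum in DXZ kidneys and 16.7%, 57.7%, 61.0% and 60.5% in saline kidneys, low in DXZ 3 and saline 1. Their sum was 287, 528 and 286 CPM in DXZ kidneys and 334, 364, 358 and 321 CPM in saline kidneys, and its log2 fold change was 0.09 (edgeR adjusted p = 0.832).

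**Figure D4:**
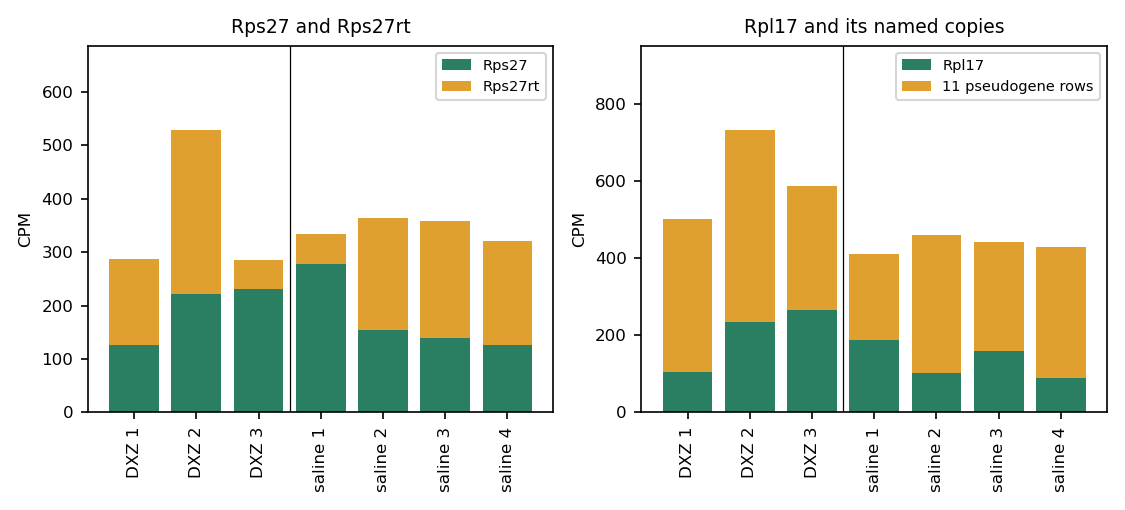
Level (vertical axes, CPM) in each library, DXZ to the left of saline, of Rps27 with its copy Rps27rt stacked on it, and of Rpl17 with its 11 named pseudogene rows stacked on it. Rps27rt holds 16.7% to 61.0% of its pair's bar, with DXZ 3 and saline 1 low, and the Rpl17 copies hold 54.3% to 79.5% of theirs.

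Of 60 genes with named copies 2, Rps10 and Rpl17, had most of the family's counts on them. Rps10 itself was at 1.69 to 2.71 CPM in DXZ kidneys and 1.53 to 2.81 CPM in saline kidneys, while its copies, chiefly Rps10-ps2, held 98.4% of the family's counts. Rpl7a, a large subunit protein whose gene hosts snoRNAs, had the largest log2 fold change among genes that did not pass. It was at 152, 219 and 94.1 CPM in DXZ kidneys and at 56.9, 54.2, 70.9 and 119 CPM in saline kidneys, with DXZ 3 below saline 4 (log2 fold change 1.04 ± 0.34 SE, edgeR adjusted p = 0.108). For Rpl17, a protein of the exit tunnel, copies held 79.4%, 68.1% and 54.5% of the family in DXZ 1 to 3 and 54.3%, 77.7%, 63.8% and 79.5% in saline 1 to 4. The row of Rpl17 had overlapping groups (log2 fold change 0.58, edgeR adjusted p = 0.358), and the summed family had a smaller spread (log2 fold change 0.48, edgeR adjusted p = 0.0873). Rpl21, also among the 5 largest log2 fold changes, did not pass as a row (0.89 ± 0.23 SE, edgeR adjusted p = 0.0624), and its summed family rose (log2 fold change 0.63, edgeR adjusted p = 0.0312). Rpl10-ps3, identical in its 645 coding bases to Rpl10, was at 4.45, 6.29 and 7.03 CPM in DXZ kidneys and at 10.1, 12.4, 7.45 and 7.29 CPM in saline kidneys (log2 fold change −0.65 ± 0.25 SE, edgeR adjusted p = 0.157). Its DXZ libraries all lay below its saline libraries in level, and its counts were few. Rpl24 was low in every kidney, at 5.30 to 7.68 CPM in DXZ kidneys and 6.60 to 10.8 CPM in saline kidneys, and negative in sign (log2 fold change −0.40 ± 0.22 SE, edgeR adjusted p = 0.291). Rpl13a, which in human cells also joins a complex that silences inflammatory mRNAs, was low as well, at 16.7 to 19.4 CPM in DXZ kidneys and 15.4 to 18.7 CPM in saline kidneys (log2 fold change 0.11 ± 0.12 SE, edgeR adjusted p = 0.603). Rps12-ps3, annotated as protein-coding, was at 121, 206 and 119 CPM in DXZ kidneys and at 139, 174, 151 and 126 CPM in saline kidneys, so its groups overlapped, and its log2 fold change of 0.01 ± 0.21 SE changed sign between fits. Rps12 itself was at 206, 371 and 284 CPM in DXZ kidneys and at 158, 214, 229 and 152 CPM in saline kidneys, also with overlap (log2 fold change 0.61, edgeR adjusted p = 0.140). Pseudogene rows were taken by biotype and by a ribosomal protein gene name, so pseudogenes under other names were not counted. The rows so named held 0.152 ± 0.0183% of counts (SD, n = 3) in DXZ kidneys and 0.112 ± 0.0109% (SD, n = 4) in saline kidneys. That was 3.92 per 100 counts of the 88 genes in DXZ kidneys and 4.03 in saline kidneys. Of 76 tested pseudogene rows 6 rose, where 3.24% of all tested genes rose, and none fell, where 2.31% did, with a median log2 fold change of 0.41. With every named copy added to its parent, 30 of 83 genes rose, where 3.24% of all genes rose, and the median was 0.48.

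Fau and Rack1, which encode ribosomal proteins under other names, also had positive log2 fold changes, and Fau rose. Fau, which encodes the small subunit protein eS30 fused to a ubiquitin-like protein, was at 409, 419 and 470.0 CPM in DXZ kidneys and at 298, 321, 316 and 326 CPM in saline kidneys (log2 fold change 0.46 ± 0.10 SE, edgeR adjusted p = 0.0437). Its groups did not overlap. Rack1, the scaffold on the small subunit head, was higher in every DXZ library and did not pass (log2 fold change 0.31 ± 0.13 SE, edgeR adjusted p = 0.185).

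Genes that work with ribosomes had smaller median log2 fold changes, a difference that was not tested. Of 20 other genes with TOP mRNAs, such as translation factors, none passed, and their median log2 fold change was 0.14, with Pabpc1, the poly(A)-binding protein, at 0.55 ± 0.18 SE (edgeR adjusted p = 0.105) and Eif3g, an initiation factor subunit, at 0.27 ± 0.08 SE (edgeR adjusted p = 0.0870). At an unadjusted p below 0.05 there were 3 of them, and DESeq2 called 2 and limma-voom none. Of 30 initiation and elongation factors 2 rose (6.67%) and none fell, with a median of 0.17. Of all tested genes 3.24% rose, and of those at 100 CPM or more 6.14%. At an unadjusted p below 0.05, 10 of the 30 were higher and none lower, where 14% of tested genes were higher. DESeq2 called 6 of the 30 higher, against 7.61% of tested genes, and limma-voom 3, against 3.44%. Eif6, which keeps free large subunits from joining small ones, was at 258, 277 and 304 CPM in DXZ kidneys and at 120.4, 180.1, 161 and 145 CPM in saline kidneys (log2 fold change 0.88 ± 0.15 SE, edgeR adjusted p = 0.0225). Eif4ebp1, which blocks the cap-binding factor until mTORC1 phosphorylates it, was at 57.1, 101 and 92.1 CPM in DXZ kidneys and at 22.5, 31.4, 33.7 and 26.8 CPM in saline kidneys (log2 fold change 1.54 ± 0.21 SE, edgeR adjusted p = 0.0204). For both genes every DXZ library was above every saline library.

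Ribosome biogenesis genes numbered 69, with a median log2 fold change of 0.14. Of these, 17 were higher and none lower at an unadjusted p below 0.05, where 14% of tested genes were higher. DESeq2 called 9 of the 69 higher, against 7.61% of tested genes, and limma-voom 3, against 3.44%. By edgeR 4 of them rose (5.80%), against 3.24% of all tested genes, and none fell. They included Nhp2, a protein of the particles that guide pseudouridine formation in ribosomal RNA (log2 fold change 0.81 ± 0.11 SE, edgeR adjusted p = 0.0204), Las1l, which cuts the large-subunit precursor RNA (0.46 ± 0.10 SE, edgeR adjusted p = 0.0429), and Fbl, fibrillarin, the ribosomal RNA methyltransferase (0.42 ± 0.09 SE, edgeR adjusted p = 0.0437). Of 20 RNA polymerase I genes 1 rose, Polr2h, a subunit that all nuclear RNA polymerases share (log2 fold change 0.65 ± 0.12 SE, edgeR adjusted p = 0.0301), with a median of 0.08. At an unadjusted p below 0.05, 6 of these 20 were higher and none lower, where 14% of tested genes were higher. DESeq2 called 3 of the 20 higher, against 7.61% of tested genes, and limma-voom 1, against 3.44%. Of 15 chaperones and importers of ribosomal proteins none rose and Heatr3, which helps bring Rpl5 into the nucleus, fell, where 2.31% of all tested genes fell. It was at 25.6, 21.9 and 22.5 CPM in DXZ kidneys and at 36.9, 36.4, 33.5 and 33.4 CPM in saline kidneys (log2 fold change −0.59 ± 0.10 SE, edgeR adjusted p = 0.0239).

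Among regulators 1 gene passed in the MYC network list and 1 in the mTORC1 list, where 3.24% of all tested genes rose. Myc, the transcription factor that drives ribosome production, was at 39.0, 47.8 and 48.1 CPM in DXZ kidneys and at 16.5, 31.8, 21.5 and 26.9 CPM in saline kidneys, without overlap (log2 fold change 0.90 ± 0.21 SE, edgeR adjusted p = 0.0492). It was the one of 13 genes of the MYC network to pass, and the median of the list was 0.14. Of 28 mTORC1 pathway genes 1 passed (3.57%), Eif4ebp1, and the median was 0.05. Of 16 non-coding and other snoRNA host genes 1 rose (6.25%), Snhg6 (log2 fold change 0.92 ± 0.21 SE, edgeR adjusted p = 0.0454). That was against 3.24% of all tested genes, and the median of the list was 0.33. At an unadjusted p below 0.05, 8 of the 16 were higher and 1 lower, where 14% of tested genes were higher. DESeq2 called 6 of the 16 higher, against 7.61% of tested genes, and limma-voom 2, against 3.44%. Of 20 genes of the ribosomal protein and MDM2 checkpoint, 16 of them among the 88, 3 rose (Rps20, Rps27a and Rpl23), and the median was 0.38.

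Mitochondrial ribosomal proteins, which build the separate ribosome inside mitochondria, stood nearer to the rest of the transcriptome. Of 77 tested genes 2 rose (Mrpl52 and Mrps10), 2.60% against 3.24% of all tested genes. A further 1 (Mrpl50) fell, where 2.31% of all tested genes fell, and the median log2 fold change was 0.10. At an unadjusted p below 0.05, 14 of the 77 were higher and 4 lower, where 14% of tested genes were higher. DESeq2 called 7 of them higher, against 7.61% of tested genes, and 1 lower. Mrpl52 was at 80.9 CPM on average in DXZ kidneys and 56.0 CPM in saline kidneys (log2 fold change 0.53 ± 0.10 SE, edgeR adjusted p = 0.0309). Mrpl50 was at 57.2 CPM in DXZ kidneys and 82.6 CPM in saline kidneys (log2 fold change −0.53 ± 0.08 SE, edgeR adjusted p = 0.0215). The difference between the cytoplasmic and the mitochondrial set was not tested.

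**Figure D5:**
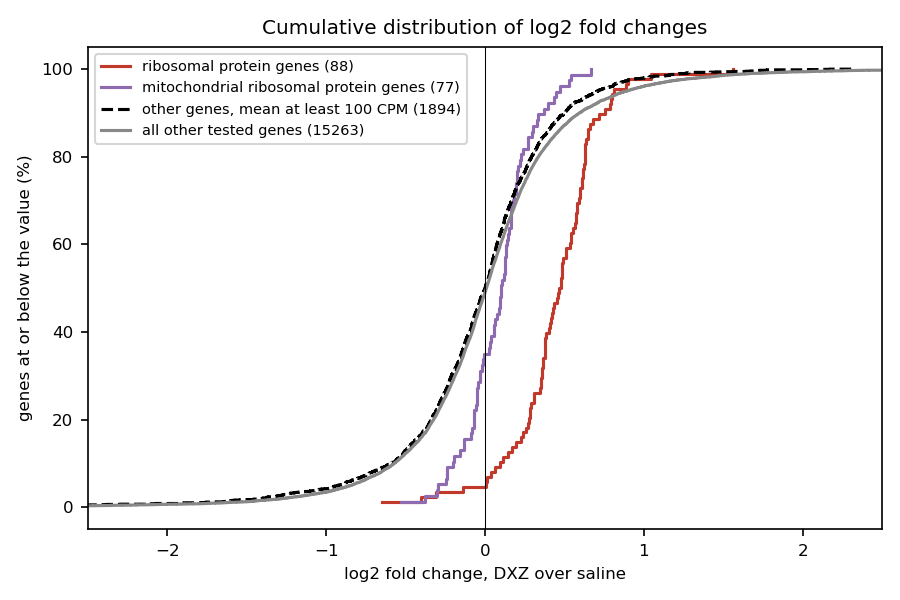
Cumulative share of genes (vertical axis) by log2 fold change, DXZ over saline (horizontal axis), for the 88 cytoplasmic ribosomal protein genes, the 77 mitochondrial ones, the abundant ones among the other genes (100 CPM or more on average, dashed) and all other tested genes (grey). The medians of the cytoplasmic and mitochondrial sets are 0.47 and 0.10, and the curves of the other genes cross their middle near 0.

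Markers of other cells that a kidney sample can hold were also set beside these values. All 14 macrophage markers were tested, with summed levels of 219 to 678 CPM in DXZ kidneys and 292 to 454 CPM in saline kidneys. Of these 2 rose, Cd68 and Cd14 (14.3%), where 3.24% of all tested genes rose. The log2 fold change was negative for 7 of the 14, and its median was 0.02. Relative to the saline mean, the median macrophage marker stood at a log2 difference of 1.31 in DXZ 1, −1.24 in DXZ 2 and −1.63 in DXZ 3. Of 14 lymphocyte markers 4 were tested, summing to 5.37 to 19.6 CPM in DXZ kidneys and 5.35 to 15.2 CPM in saline kidneys. All 10 endothelial markers were tested and none passed by edgeR, DESeq2, limma-voom or an unadjusted p below 0.05, at 131 to 543 CPM in DXZ kidneys and 340 to 515 CPM in saline kidneys, and the same held for the 8 fibroblast markers. None of 5 red cell markers reached the filter, with sums of 0.236 to 0.544 CPM in DXZ kidneys and 0 to 0.672 CPM in saline kidneys, and Hbb-bt was at 0 in every library. In these sums the groups overlapped, and within the DXZ group DXZ 1 had the highest macrophage, endothelial and fibroblast sums and the lowest level of 63 ribosomal protein genes. The part of these cells in the result was not tested. Without saline 1 and DXZ 1, 36 of the 88 ribosomal protein genes rose, where 4.1% of all genes rose. The median log2 fold change of the 88 was then 0.52. DXZ 2, with the lowest proximal tubule sum and the highest injury sum, also stood apart in cell markers. Without DXZ 2 none of the 88 passed, where 0% of all genes rose, and their median was 0.37.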

How the data were processed

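The deposited count table lists, for each gene and library, an unnormalized whole-number read count, per the file headers and values. The deposited FPKM table holds, by the authors, those counts divided by gene length and 1 constant per library, so it is no independent measurement. The submitters' processing notes name HISAT2, StringTie and mm9 and give no role or version. For the counting program and its strand setting, the sources used here give nothing. Gene coordinates in the tables are those of GRCm38 rather than mm9: 53499 of 54409 identifiers shared with GENCODE M21 (98.3%) have the same start and end, as do 84 of the 88 ribosomal protein genes, and the printed sequences come from RefSeq on GRCm38.p6.

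The main analysis used edgeR 4.0.16 under R 4.3.3: filterByExpr by group, TMM scaling, the quasi-likelihood F test without covariates over 15351 genes, and Benjamini-Hochberg adjustment with a threshold of 0.05. Levels are CPM on TMM library sizes, and an SE is the log2 fold change over the root of its F statistic. The fit was tested on simulated data. Alternatives used DESeq2 1.42.0, limma 3.58.1, other filters, scalings and denominators, length and GC trends, a replicate block, and each library left out. Replicates differed by 15.1 to 99.1 times counting noise (chi-square over its degrees of freedom), and none was treated as a duplicate.

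The genes and lists were chosen with earlier results of these data known, and no test was run on a list. Named genes are the 15 of lowest adjusted p among those past the threshold, the 5 largest and 5 smallest log2 fold changes, the 5 highest and 3 lowest levels per length, a fixed set of role and paralog genes, and up to 3 genes in each direction per list. Rps9, Rps13, Rpl8, Rpl31, Rpl38, Rpl17 and Rps12, and in the sequences Rpl27a, Rps18 and Rpl14, lie outside that rule and were chosen after their values were seen. In their deviations from the group means, same-numbered libraries correlated at 0.258, −0.088 and 0.226, and differently numbered ones at −0.459 to 0.428. So few values cannot decide whether the numbers pair the samples. The main fit used no pairing. Copies were compared by their longest open reading frames in GENCODE M21. Some genes are not reported here.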

Additional observations from a re-analysis of the deposited data

Results flagged for a closer look

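In 3 of 54 saline groups looked at, 1 library lay so far from the other saline libraries that its gap exceeded Dixon's critical share of the range, and chance does this in about 1 in 20 groups. The DXZ group has too few libraries for this check. Rps27a was at 234 CPM in saline 2, above the other saline libraries at 87.2 to 107 CPM. Rps27rt was at 56.0 CPM in saline 1, below the others at 194 to 219 CPM, in the library where Rps27 was highest. Rps28 was at 67.6 CPM in saline 1, with the others at 70.4 to 70.5 CPM, a gap that is small in size.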

How the results depend on the processing

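The median log2 fold change of the 88 genes kept its sign in every alternative run, within 0.37 to 0.54, and each change in count below has no tested cause. Against 853 of all genes, 29 of the 88 and 15 list genes, DESeq2 called 2116, 49 and 41. Removing the length trend left 14 of the 88 and 7 list genes, and removing length and GC trends left 17 of the 88, with 634 over all genes. Leaving out 1 library at a time gave 1 to 1574 of all genes, 0 to 36 of the 88 and 0 to 23 list genes, with at least 2 libraries left per group. Without saline 1 and DXZ 1 there were 1332 over all genes. That fit, the GC trend and the summed copies were chosen after seeing the data. With the replicate number as a block, 85 of all genes, 0 of the 88 and 1 list gene were called, and with the length trend also removed 199, 1 and 2. At an unadjusted p below 0.05 the block left 53 of the 88 higher and 1 lower. Over all genes 3231 of 15351 tested were under that p with the block, in either direction. Log2 fold changes near 0 changed sign. Rps12-ps3 was at −0.0498 by limma-voom, −0.0356 by limma on log2 FPKM with a pseudocount of 1 and −0.0358 with 0.1, −0.17 without the length trend, −0.16 without length and GC trends, −0.10 with the block and −0.27 with block and length. Rps27rt was at −0.57 by limma-voom, −0.104 on the FPKM scale with a pseudocount of 1 and −0.105 with 0.1, −0.12 without the length trend, −0.11 without length and GC trends, −0.0953 with block and length, and −0.203 without saline 1 and DXZ 1. Rps10 was at −0.0588 with the block, −0.0826 with block and length and −0.0685 without length and GC trends. Rps27 was at −0.0712 with block and length and −0.0197 without length and GC trends. Rpl7l1 was at −0.0215 by limma-voom and −0.0462 without saline 1 and DXZ 1, where the lymphocyte marker Lck was at −0.13. Leaving out 1 library gave ranges of −0.31 to 0.15 for Rps12-ps3, −0.67 to 0.47 for Rps27rt, −0.099 to 0.21 for Rps10, −0.026 to 0.050 for Rpl7l1, −0.042 to 0.19 for Rpl10, −0.0056 to 0.46 for Rps27, −0.23 to 0.036 for Rpl9-ps6 and −0.073 to 0.70 for Lck. At a depth of 16058157 counts or more, Rpl36al had the fewest counts of the 88 genes, at 7 to 19 per library. Its SE was 0.44 on the log2 scale. The largest SE of the 88 was 0.60, for Rps27rt.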
